A study of Mus musculus with 26 samples.

Results

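The comparison set 4 entorhinal arrays of APP transgenic mice given a BDNF lentivirus (TG BDNF) against all 5 entorhinal arrays of non-transgenic mice (all NTG), which makes 9 of the 26 arrays of the series. The question was how far the treated transgenic tissue lay from non-transgenic tissue. The arrays were chosen by their labels: region entorhinal cortex, genotype APP with BDNF treatment, or genotype non-transgenic with any treatment. Of the 5 non-transgenic arrays, 2 came from mice given a GFP lentivirus (NTG GFP) and 3 from mice with a sham lesion (NTG sham). Another group, 4 entorhinal arrays of transgenic mice given the GFP lentivirus (TG GFP), entered the fit and is set beside the result where it bears on it. The tissue is described as aged and was taken 4 weeks after infection, and the labels name the entorhinal cortex as the site of the BDNF lentivirus. The labels used here do not name the promoter of the APP transgene, the strain, the sex or the age in months. They call the arrays of a group biological replicates. TG BDNF and all NTG differ in the transgene, in BDNF and, for the sham arrays, in having had a vector at all, and these cannot be told apart in this comparison alone.

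BDNF is a secreted growth factor that binds the receptor TrkB and, through it, activates the ERK, PI3K and phospholipase C pathways in neurons. The entorhinal cortex passes cortical input to the hippocampus and is among the regions affected early in Alzheimer's disease. APP is the precursor of the amyloid peptide, and mice that carry a mutant human APP transgene accumulate that peptide in the brain. Cells that respond to BDNF are known for induced early genes, neuropeptide genes and feedback inhibitors of ERK, and BDNF is known to raise cholesterol synthesis in cultured neurons.

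The values are log2 levels from RMA, a method that corrects background, brings the arrays to a common distribution and combines each probe set's probes into 1 value. They lay between 2.19 and 13.97 on the 13 entorhinal arrays, whose medians were 5.51 to 5.56. Markers of the region went with the label: Reln, made by layer II cells of the entorhinal cortex, read 11.10 to 11.62 on the 9 arrays against 9.02 to 9.78 on the 13 hippocampal arrays, and the dentate gyrus genes Prox1 (4.21 to 5.15) and Dsp (3.99 to 5.31) read below the hippocampal arrays (6.57 to 7.96 and 8.52 to 9.89). The mean over 16 myelin and oligodendrocyte genes was 7.25 on TG BDNF replicate 3 and 7.53 on NTG GFP replicate 2, where the remaining 11 had 8.03 to 8.75. The mean over 14 lymphocyte genes was 7.24 on TG GFP replicate 4 and 7.21 on NTG GFP replicate 1, against 5.31 to 5.95 on the others. Xist, expressed from the inactive X chromosome, read 10.96, 5.78, 5.58 and 10.74 on the TG BDNF arrays and 10.38 to 10.89 on the 5 NTG arrays (5.42 to 10.88 on the TG GFP arrays). The Y-linked Eif2s3y was high (8.47 and 7.95) on TG BDNF replicates 2 and 3 and at most 3.48 on the other TG BDNF and all NTG arrays, so 2 of 4 TG BDNF arrays and 0 of 5 NTG arrays carried the male pattern. Results below are given with these arrays. Alternative fits left out 1 array at a time or the 2 arrays low in myelin genes. No fit left out both TG BDNF arrays with the male pattern, and Xist was used as a covariate instead.

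Few genes separated the treated transgenic tissue from non-transgenic tissue. Limma, a linear model with a moderated test, called 6 of 14941 tested genes at an adjusted p under 0.05, which is 0.0402% of those tested. Thy1, Cwc22 and Pmaip1 were higher in TG BDNF tissue (0.0201%), and St13, Galc and Pcdhb9 were lower (0.0201%). They fell into 2 kinds: Thy1 and St13 were called against each kind of non-transgenic array, while the other 4 genes were called against the sham arrays and not against the NTG GFP arrays.

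Thy1, a surface glycoprotein of neurons and T cells, had log2 levels of 13.65, 13.53, 13.76 and 13.72 on the TG BDNF arrays, against 12.30 and 12.32 on the NTG GFP arrays and 12.46, 12.39 and 12.41 on the sham arrays. Every TG BDNF array lay above every NTG array. The log2 difference was 1.29 ± 0.06 (SE, n = 4 and 5, adjusted p = 6.6e-07), a 2.45-fold higher signal. It was 1.36 ± 0.08 against NTG GFP alone and 1.25 ± 0.07 against sham alone. The TG GFP arrays, at 13.67 to 13.80, lay with the TG BDNF arrays, and TG BDNF minus TG GFP was -0.06 with a 95% interval of -0.20 to 0.07.

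St13 encodes a cochaperone that works with Hsp70 and Hsp90. Its log2 levels were 10.93, 10.81, 10.91 and 11.08 on the TG BDNF arrays, against 11.72 and 11.65 on the NTG GFP arrays and 11.74, 11.62 and 11.74 on the sham arrays, with no overlap. The log2 difference was -0.76 ± 0.06 (adjusted p = 0.000345), or 0.591-fold of the non-transgenic signal, and it was -0.75 against NTG GFP alone and -0.76 against sham alone. A second St13 probe set gave a log2 difference of -0.87 ± 0.11 and the dimmest, which read 6.43 ± 0.08 on TG BDNF and 6.56 ± 0.15 on all NTG arrays (SD), gave -0.13 ± 0.10. The TG GFP arrays read 10.88 to 10.97, and TG BDNF minus TG GFP was 0.01 (95% interval -0.13 to 0.16).

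**Figure D1:**
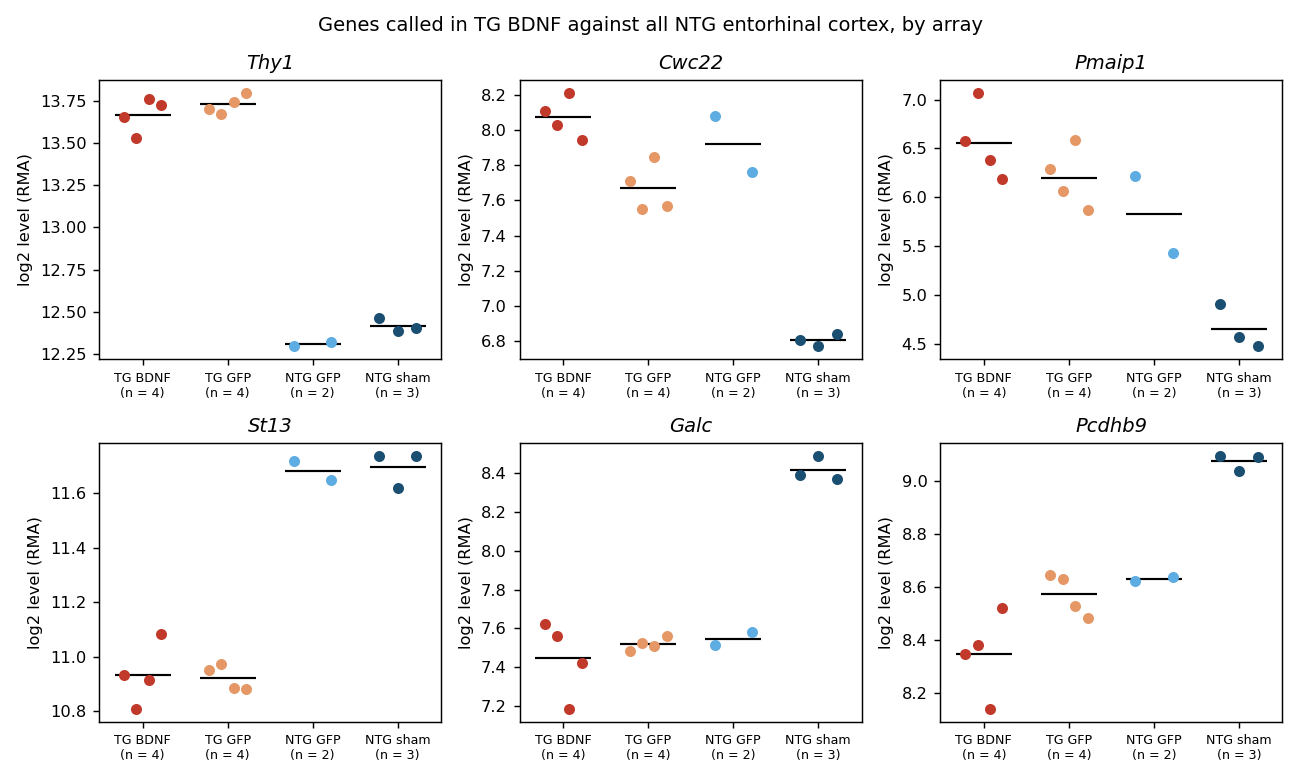
Log2 levels (y axis, RMA) of the 6 called genes on each entorhinal array, by group along the x axis; points are arrays and black lines are group means. Thy1 and St13 split by genotype, whereas the NTG GFP arrays of Cwc22, Galc and Pmaip1 lie on or near the levels of the transgenic arrays and apart from the 3 sham arrays.

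Cwc22, a splicing factor that binds the exon junction complex, had log2 levels of 8.11, 8.03, 8.21 and 7.94 on the TG BDNF arrays. It had 8.08 and 7.76 on the NTG GFP arrays and 6.81, 6.77 and 6.84 on the sham arrays, so the TG BDNF and NTG GFP arrays overlapped and the sham arrays stood apart. The log2 difference was 0.82 ± 0.09 against all NTG (adjusted p = 0.00303), 1.27 ± 0.10 against sham (adjusted p = 0.00016) and 0.15 ± 0.11 against NTG GFP (adjusted p = 0.783). The TG GFP arrays read 7.55 to 7.85, and TG BDNF minus TG GFP was 0.40 (95% interval 0.20 to 0.60), which did not pass over all genes (adjusted p = 0.998).

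Galc, the lysosomal galactosylceramidase that breaks down myelin galactolipids, read 7.62, 7.56, 7.19 and 7.42 on the TG BDNF arrays. It read 7.51 and 7.58 on the NTG GFP arrays and 8.39, 8.49 and 8.37 on the sham arrays, with the same overlap between TG BDNF and NTG GFP. The log2 difference was -0.62 ± 0.08 against all NTG (adjusted p = 0.0218), -0.97 ± 0.09 against sham and -0.10 ± 0.10 against NTG GFP. Its 2 other probe sets were dim, with means of 4.44 and 3.16 on TG BDNF and 4.51 and 3.02 on all NTG arrays. They gave log2 differences of -0.07 ± 0.12 and 0.14 ± 0.07 against all NTG. The call thus rests on 1 probe set, and it was lost under 11 of 29 alternative settings.

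Pmaip1, which encodes the proapoptotic BH3-only protein Noxa, had log2 levels of 6.58, 7.07, 6.39 and 6.18 on the TG BDNF arrays. It had 6.22 and 5.43 on the NTG GFP arrays and 4.91, 4.57 and 4.48 on the sham arrays, and only NTG GFP replicate 1 reached the TG BDNF range. The log2 difference was 1.43 ± 0.21 (adjusted p = 0.0453), with 1.90 ± 0.24 against sham (adjusted p = 0.00839) and 0.73 ± 0.27 against NTG GFP (adjusted p = 0.723). Pmaip1 lost its call against all NTG under 18 of 29 alternative settings. TG GFP arrays read 5.87 to 6.58, and TG BDNF minus TG GFP was 0.35 (95% interval -0.13 to 0.84).

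Pcdhb9, a clustered protocadherin of the beta group, read 8.35, 8.38, 8.14 and 8.52 on the TG BDNF arrays, against 8.62 and 8.64 on the NTG GFP arrays and 9.10, 9.04 and 9.09 on the sham arrays. The groups did not overlap, but the gap to NTG GFP was small. The log2 difference was -0.55 ± 0.07 against all NTG (adjusted p = 0.0218), -0.73 ± 0.08 against sham and -0.28 ± 0.10 against NTG GFP (adjusted p = 0.72). The call was lost under 12 of 29 alternative settings. Beta protocadherins are related genes of 1 cluster, and whether this probe set also reads other members was not tested.

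The 4 groups each had their own mean in the fit, so a gap between NTG GFP and sham does not enter the errors above. With the 5 non-transgenic arrays as 1 group, 2 genes were called, Thy1 and St13. The same 2 genes were the only ones called without sham replicate 1 or without sham replicate 2. With Xist as a covariate the calls were Cwc22, St13 and Thy1. The count of calls was 10 without NTG GFP replicate 1, the array high in lymphocyte genes.

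Against the 2 NTG GFP arrays alone, 2 genes were called (0.0134%), Thy1 and St13. St13 lost that call with only the groups compared in the fit and with the replicate number as a block. It also lost the call without NTG GFP replicate 1, without NTG GFP replicate 2 and without the 2 arrays low in myelin genes. Each of these last fits left 1 NTG GFP array. Against the 3 sham arrays alone, 9 were called (0.0602%): Thy1, Cwc22, Pmaip1 and Nxpe3 higher, and St13, Galc, Pcdhb9, Fgf1 and Lsm11 lower. With only the groups compared in the fit, Thy1 and Cwc22 were the 2 genes called against sham. Fgf1, acidic fibroblast growth factor, read 8.19, 8.30, 8.14 and 8.17 on the TG BDNF arrays, 8.16 and 7.99 on the NTG GFP arrays and 8.75, 8.90 and 8.90 on the sham arrays. Its log2 difference was -0.65 against sham and 0.12 against NTG GFP. Between the non-transgenic groups themselves, NTG GFP minus sham called 3 genes (0.0201%), with log2 differences of 1.11 for Cwc22, -0.77 for Fgf1 and -0.87 for Galc.

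For scale, TG GFP against all NTG, which shares the 5 non-transgenic arrays with the comparison described here, called 2 genes (0.0134%), again Thy1 (1.35 ± 0.06) and St13 (-0.77 ± 0.06). TG BDNF against TG GFP called 0 genes by limma, with 580 at an unadjusted p under 0.05 (3.88%) and a smallest adjusted p of 0.993. Under each alternative setting run, that count stayed at 0.

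**Figure D2:**
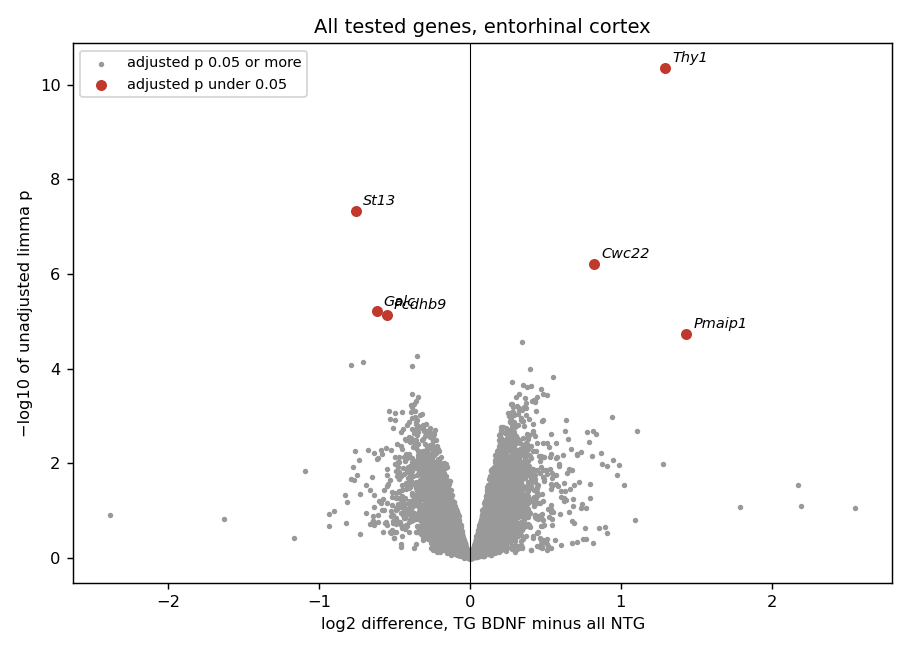
Log2 difference of TG BDNF minus all NTG (x axis) against −log10 of the unadjusted limma p (y axis) for 14941 genes; red points are the 6 called genes. Thy1 and St13 stand far above the other points, and most genes lie within 0.5 of 0.

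Below the threshold many genes leaned away from 0. At an unadjusted p under 0.05 there were 1966 genes (13.2%), against 747 expected if no gene differed, with 1290 higher (8.63%) and 676 lower (4.52%) in TG BDNF tissue. The split depended on the scaling: after renewed quantile normalization it was 871 higher of 1658, and after centring on array medians 1741 higher of 2227. The TG BDNF and NTG arrays did not overlap for 686 genes (4.59%), 491 higher (3.29%) and 195 lower (1.31%). The median absolute log2 difference was 0.10, and 181 genes exceeded 0.5 and 14 exceeded 1. Whatever the p, 57.4% of all genes read higher in TG BDNF tissue than in all NTG. That share is to be set beside the counts of higher and lower list members below. For 84.8% of genes the 95% interval lay within 0.5 log2 units of 0, and for 98.0% within 1, a band that corresponds to a 2-fold difference.

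Next in rank among the higher genes was Kctd18. This gene, which encodes a potassium channel tetramerization domain protein, read 7.19, 7.14, 7.16 and 7.07 on the TG BDNF arrays, against 6.73 and 6.77 on the NTG GFP arrays and 6.86, 6.78 and 6.84 on the sham arrays. These groups did not overlap, and the log2 difference of 0.35 ± 0.05 had an adjusted p of 0.0578. The log2 difference of Kctd18 was 0.39 against NTG GFP and 0.31 against sham. Phactr2, a phosphatase and actin regulator, read 6.46, 6.70, 6.65 and 7.14 on the TG BDNF arrays, against 7.26 and 7.81 on the NTG GFP arrays and 7.51, 7.67 and 7.38 on the sham arrays, a log2 difference of -0.79 ± 0.14 (adjusted p = 0.121). The other higher genes named by rank were Prim1, a DNA primase subunit (0.40), Nmral1, an NADPH sensor (0.55), Mrps35, a mitochondrial ribosomal protein (0.35), Zfp551, a zinc finger protein (0.40), Tuft1 (0.38) and Nxpe3 (0.28). The other lower genes were Lsm11, a subunit of the U7 ribonucleoprotein that processes histone mRNA (-0.71), Lce1i (-0.35), 4930542N06Rik (-0.38), Cyp2c38 (-0.38) and Dhrs2 (-0.36), with adjusted p from 0.0996 for Lce1i to 0.242 for Dhrs2.

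The genes of the design itself did not differ at a detectable size. App read 13.25 to 13.36 on the TG BDNF arrays and 13.26 to 13.34 on the NTG arrays, a log2 difference of -0.01 with a 95% interval of -0.12 to 0.10. A second App probe set gave -0.03 ± 0.07. Bdnf read 8.45, 8.18, 7.72 and 7.71 on the TG BDNF arrays, against 7.42 and 8.21 on the NTG GFP arrays and 7.83, 8.26 and 8.05 on the sham arrays. Its log2 difference was 0.06 ± 0.20 (95% interval -0.37 to 0.49), and the second Bdnf probe set gave 0.10 ± 0.20. The labels do not say whether these probe sets read the transgene or the vector transcript. Ntrk2, the TrkB gene, gave -0.08 ± 0.10, and Gfap, the astrocyte filament, -0.04 ± 0.23.

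Of 18 tested genes of BDNF and TrkB signalling, 0 were called and 1 passed an unadjusted p under 0.05, as lower, against 4.52% of all genes. That gene was Mapk7, the ERK5 kinase, at a log2 difference of -0.22 ± 0.07. The low-affinity receptor Ngfr gave -0.09 ± 0.08, and the PI3K subunit Pik3r1 0.07 ± 0.06. The median over the 18 was 0.01, against 0.03 over all genes tested. Of 20 activity-regulated early genes, 12 were higher and 8 lower, with a median of 0.05 (-0.06 against NTG GFP and 0.09 against sham). Egr3, a transcription factor induced by activity, gave -0.35 ± 0.15, Nr4a2 0.38 ± 0.22, Npas4 -0.49 ± 0.31 and Egr4 -0.14 ± 0.11. Of 11 ERK feedback genes, 8 were lower (median -0.11). Against NTG GFP alone 4 were lower (median 0.01), and against sham alone 9 were (median -0.19). For TG GFP against all NTG, 9 of the 11 were lower (median -0.14). Spry1, an inhibitor of receptor tyrosine kinase signalling, had log2 levels of 7.38 to 7.48 on TG BDNF and 7.52 to 7.67 on NTG arrays. Its log2 difference was -0.16 ± 0.06, and that of Etv5, a transcription factor downstream of ERK, was -0.33 ± 0.14. Etv4 gave -0.16 ± 0.08, and Dusp5 went the other way at 0.22 ± 0.17. No gene of these 3 lists passed over all genes.

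Neuropeptide genes that respond to neurotrophins were mostly lower. Of 16, 12 were lower, 5 at an unadjusted p under 0.05, a level that 4.52% of all genes reached in that direction, and 0 were called. The median log2 difference was -0.16, with -0.09 against NTG GFP and -0.23 against sham. The list means overlapped, at 9.35 to 9.52 on TG BDNF and 9.35 to 9.76 on NTG arrays. Tac1, the substance P precursor, read 9.23, 9.54, 9.37 and 9.65 on the TG BDNF arrays, against 9.82 and 9.82 on the NTG GFP arrays and 9.90, 9.81 and 10.03 on the sham arrays. All TG BDNF arrays lay below all NTG arrays, with a log2 difference of -0.43 ± 0.12 (adjusted p = 0.266). Cort, the cortistatin gene, read 6.73, 7.005, 6.64 and 6.74 on the TG BDNF arrays and 7.05 to 7.33 on the NTG arrays, a log2 difference of -0.38 ± 0.10. Npy gave -0.37 ± 0.10 and Sst, somatostatin, -0.21 ± 0.07. For Npy the log2 difference was -0.52 against sham and -0.15 against NTG GFP. The log2 differences of TG BDNF minus TG GFP were -0.26 for Tac1, -0.23 for Cort, -0.21 for Npy and -0.18 for Sst. These genes were picked by their difference from NTG, which used the same TG BDNF arrays. TG BDNF against TG GFP called 0 genes.

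Cholesterol synthesis genes were mostly higher. Of 17 tested, 16 were higher, 6 at an unadjusted p under 0.05, a level that 8.63% of all genes reached in that direction, and 0 were called. The median log2 difference was 0.13, with 0.21 against NTG GFP and 0.05 against sham. The list mean was 8.87, 9.07, 8.93 and 8.85 on the TG BDNF arrays, against 8.71 and 8.74 on the NTG GFP arrays and 8.82, 8.81 and 8.87 on the sham arrays. The TG BDNF arrays thus lay above both NTG GFP arrays and, in part, within the reach of the sham arrays, since sham replicate 3 exceeded TG BDNF replicate 4. TG GFP arrays had 8.81 to 9.15, and TG BDNF minus TG GFP had a median of -0.07 over the 17 genes. Tm7sf2, a sterol reductase, read 7.69, 7.99, 7.97 and 7.65 on the TG BDNF arrays, against 7.74 and 7.55 on the NTG GFP arrays and 7.41, 7.43 and 7.42 on the sham arrays, a log2 difference of 0.31 ± 0.09. Sqle, squalene epoxidase, gave 0.22 ± 0.07, the kinase Pmvk 0.25 ± 0.08 and the sterol isomerase Ebp 0.23 ± 0.08. The TG BDNF and NTG arrays did not overlap for 3 of the 17 genes, Sqle, Ebp and the farnesyl diphosphate synthase gene Fdps (0.21 ± 0.10), all higher, as were 3.29% of all genes. Among the regulators of the pathway, Srebf1 gave 0.32 ± 0.10 and the sterol transfer protein Stard4 0.27 ± 0.09, Insig2 gave 0.14 ± 0.07, and Cyp46a1, the enzyme that removes cholesterol from neurons, gave -0.18 ± 0.08.

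Windows around the start sites of 3 of these genes are shown because the pathway is known to be controlled through sterol regulatory elements and neighbouring CCAAT boxes. They run from 250 bases before to 50 bases after the start and come from RefSeq annotation on GRCm38.p6. Tm7sf2 has the smallest p of the list, Hmgcs1, the cytosolic synthase that feeds the pathway, is the 1 list member whose window holds the sterol element letters, and Idi1, the isopentenyl isomerase, had a log2 difference of 0.00 ± 0.12. Hmgcs1 (0.07 ± 0.08) and Idi1 were chosen after their values were seen. Capitals mark TCACNCCAC, the sterol element letters searched, and CCAAT, on either strand, so that CCAAT on the opposite strand appears as ATTGG. The windows are chr19:6067801-6068100, minus strand, for Tm7sf2, chr13:119690101-119690400, plus strand, for Hmgcs1 and chr13:8885356-8885655, plus strand, for Idi1, each written 5′ to 3′ along its gene.
Tm7sf2: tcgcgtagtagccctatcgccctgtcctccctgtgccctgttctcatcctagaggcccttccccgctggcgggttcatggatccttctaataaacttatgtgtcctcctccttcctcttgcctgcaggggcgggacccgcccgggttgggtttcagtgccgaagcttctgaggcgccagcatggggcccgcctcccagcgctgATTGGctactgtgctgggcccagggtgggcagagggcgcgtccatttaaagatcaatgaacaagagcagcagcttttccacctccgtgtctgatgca
Hmgcs1: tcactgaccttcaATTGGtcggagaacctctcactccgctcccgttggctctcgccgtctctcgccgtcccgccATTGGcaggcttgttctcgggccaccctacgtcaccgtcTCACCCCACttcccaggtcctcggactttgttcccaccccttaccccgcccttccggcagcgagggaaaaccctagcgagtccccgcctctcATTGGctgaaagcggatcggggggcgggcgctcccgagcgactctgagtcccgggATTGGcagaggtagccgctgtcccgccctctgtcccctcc
Idi1: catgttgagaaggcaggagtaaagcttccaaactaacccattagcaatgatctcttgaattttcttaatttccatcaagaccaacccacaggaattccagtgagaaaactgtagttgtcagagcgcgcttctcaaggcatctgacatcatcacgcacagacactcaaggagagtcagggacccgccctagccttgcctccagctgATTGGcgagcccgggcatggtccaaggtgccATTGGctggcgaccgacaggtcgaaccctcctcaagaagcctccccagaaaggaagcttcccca

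The sterol element letters stood in 1 of 18 windows of 15 list genes and in 1.24% of all 32851 windows. CCAAT on either strand stood in 14 of the 18 windows and in 37.4% of all windows. Tm7sf2, with the larger log2 difference, held 1 CCAAT, whereas Hmgcs1 held 4 with the sterol letters between them and Idi1 held 2. A match of letters is a description of these windows and says nothing of factor binding.

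**Figure D3:**
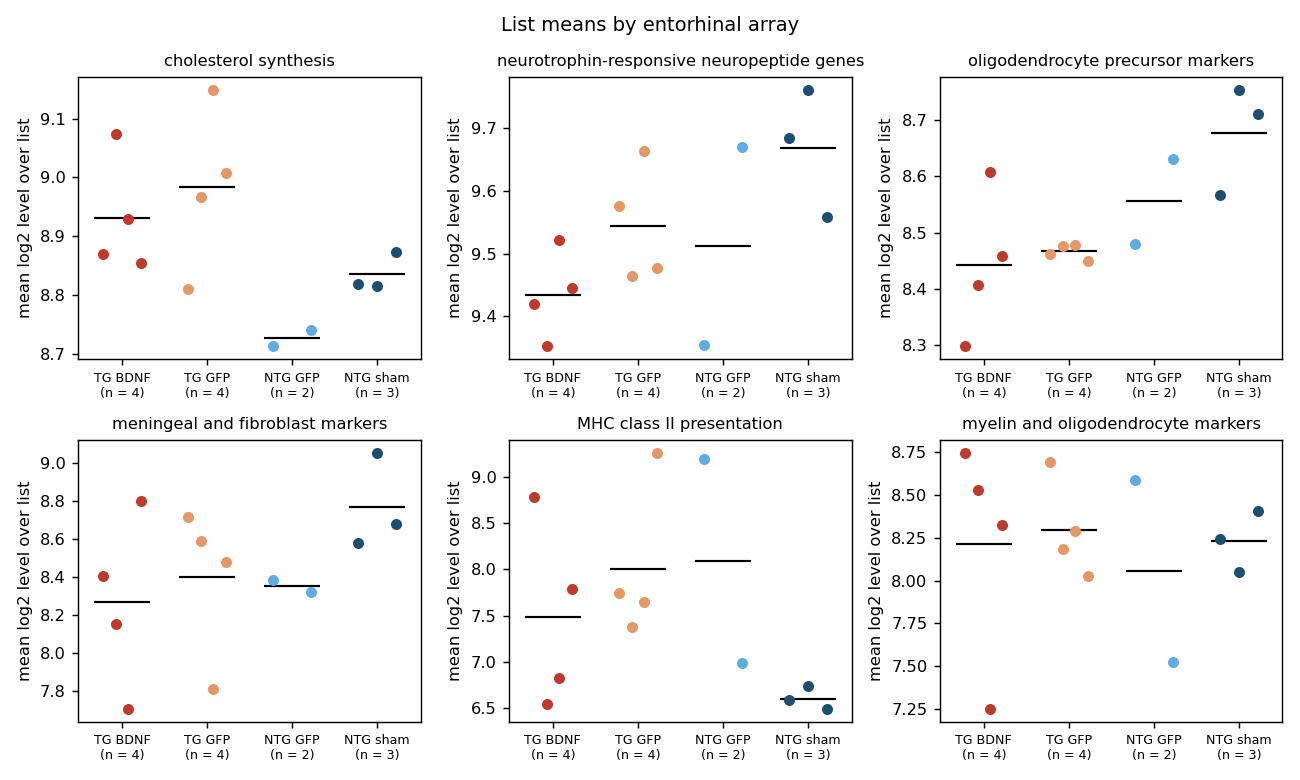
Mean log2 level over 6 gene lists (y axis) on each entorhinal array by group (x axis); points are arrays and black lines are group means. MHC class II means run from 6.54 to 8.78 within TG BDNF and from 6.99 to 9.19 within NTG GFP, and cholesterol means run from 8.85 to 9.07 on TG BDNF and from 8.81 to 8.87 on sham arrays.

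Genes of amyloid processing differed little as a group. Of 23 tested, 16 were higher, the median was 0.03 and 1 passed an unadjusted p under 0.05, as higher, against 8.63% of all genes. That gene, Mme, encodes neprilysin, a protease that degrades the amyloid peptide. It read 7.10, 7.64, 7.35 and 7.55 on the TG BDNF arrays, against 7.23 and 6.14 on the NTG GFP arrays and 6.46, 5.85 and 7.05 on the sham arrays. The ranges overlapped at NTG GFP replicate 1, and the log2 difference of 0.87 ± 0.26 had an adjusted p of 0.272. Psen2, a catalytic subunit of gamma-secretase, gave 0.19 ± 0.10, the insulin-degrading enzyme Ide 0.12 ± 0.07 and Ncstn, nicastrin, 0.14 ± 0.10.

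Of 27 heat shock proteins and cochaperones, St13 was the 1 gene called, against 0.0402% of all genes. In this list 19 were higher (median 0.07), against 57.4% of all genes. At an unadjusted p under 0.05, 3 were higher and 1 lower, against 8.63% and 4.52% of all genes. Fkbp4, an immunophilin of the Hsp90 complex, read 8.61, 8.51, 8.54 and 8.57 on the TG BDNF arrays and 8.15 to 8.37 on the NTG arrays. These groups did not overlap, and its log2 difference of 0.28 ± 0.06 (adjusted p = 0.242) was alike against NTG GFP (0.29) and sham (0.27). Hspb8, a small heat shock protein, gave 0.34 ± 0.13, and Ahsa1, an activator of Hsp90, 0.17 ± 0.07. Of 14 genes of axonal injury and stress, Pmaip1 was the 1 called, against 0.0402% of all genes, and 7 were higher and 7 lower. Among the 14, 2 passed an unadjusted p under 0.05 as higher and 2 as lower. Gadd45a, a stress-induced growth arrest gene, gave 0.48 ± 0.17, Gap43, the growth cone protein, -0.17 ± 0.06 and Sprr1a -0.24 ± 0.10.

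The sign of the immune lists depended on which non-transgenic arrays they were set against. The 10 tested MHC class II genes had a median log2 difference of 0.33 against all NTG, 0.70 against sham and -0.70 against NTG GFP, with 0 called and 0 at an unadjusted p under 0.05. The list mean was 8.78, 6.54, 6.82 and 7.79 on the TG BDNF arrays, against 9.19 and 6.99 on the NTG GFP arrays and 6.58, 6.74 and 6.49 on the sham arrays. Only TG BDNF replicates 1 and 4 and NTG GFP replicate 1 stood far above the sham arrays, so the spread within each injected group was wider than the gap between groups. Cd74, the invariant chain, read 11.11, 7.32, 7.81 and 9.48 on the TG BDNF arrays, against 11.44 and 8.24 on the NTG GFP arrays and 6.90, 7.35 and 6.88 on the sham arrays, a log2 difference of 0.77 ± 0.86. H2-Aa, a class II alpha chain, gave 0.68 ± 0.92 and H2-D1, a class I heavy chain, 0.89 ± 0.69.

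The 17 class I genes (median 0.17 against all NTG, -0.19 against NTG GFP) and the 25 interferon response genes (0.08 and -0.27) also had medians of opposite sign, with 0 called. Among them Psmb8, an immunoproteasome subunit, gave 0.51 ± 0.57, and Gbp2, a guanylate-binding protein, 0.51 ± 0.74. The interferon response genes Ifit2, Oas1a and Trim30a had log2 differences of 0.27, -0.17 and -0.14. Of 14 lymphocyte genes, 9 were lower (median -0.08, and -0.49 against NTG GFP). Il2rb, an interleukin receptor chain, gave -0.35 ± 0.09, Prf1, perforin, 0.20 ± 0.08, and the defining T cell gene Cd4 -0.13 ± 0.08.

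No microglial gene passed the test. Of 19 homeostatic microglia genes 11 were higher (median 0.02), and of 19 genes of plaque-associated microglia 15 were higher (median 0.12), with 0 at an unadjusted p under 0.05 in either list. Aif1, the microglial Iba1, gave 0.48 ± 0.28, Trem2 0.21 ± 0.15, the complement gene C1qc 0.37 ± 0.37 and Cx3cr1 -0.18 ± 0.13. Lpl, a lipase of plaque-associated microglia, gave 0.31 ± 0.33 and the lysosomal protease Ctsd 0.11 ± 0.12.

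Astrocyte genes were mixed. Of 17 reactive astrocyte genes, 11 were lower, with a median of -0.10. Serpina3n, an acute-phase protease inhibitor, read 9.66, 7.73, 9.38 and 8.95 on the TG BDNF arrays, against 8.36 and 8.77 on the NTG GFP arrays and 7.31, 6.57 and 8.53 on the sham arrays, with overlap. Its log2 difference was 1.02 ± 0.41 (adjusted p = 0.337), with 1.46 against sham and 0.37 against NTG GFP. Cd44 gave 0.62 ± 0.30 and the cytokine receptor Osmr -0.34 ± 0.16. Of 16 homeostatic astrocyte genes 10 were lower (median -0.02, with 0.05 against NTG GFP and -0.05 against sham). The potassium channel Kcnj10 gave 0.27 ± 0.08 and the folate enzyme Aldh1l1 0.19 ± 0.08. The water channel Aqp4 gave -0.17 ± 0.08 and the glutamate transporter Slc1a3 -0.15 ± 0.06.

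Genes of oligodendrocyte precursors were lower in 6 of 6, with a median of -0.17. At an unadjusted p under 0.05, 1 was lower, against 4.52% of all genes. The list means overlapped, at 8.30 to 8.61 on TG BDNF and 8.48 to 8.75 on NTG arrays. For TG GFP against all NTG, 6 of 6 were also lower (median -0.14). Pdgfra, the growth factor receptor that marks these cells, read 9.46, 9.77, 9.97 and 9.87 on the TG BDNF arrays, against 10.03 and 10.24 on the NTG GFP arrays and 10.07, 10.33 and 10.11 on the sham arrays. For Pdgfra the groups did not overlap, and the log2 difference was -0.39 ± 0.10 (adjusted p = 0.266). The proteoglycan Cspg4 gave -0.22 ± 0.11, Gpr17 -0.15 ± 0.11 and Vcan -0.19 ± 0.14. In bulk tissue, fewer cells of a type and less RNA per cell cannot be told apart. Of 16 myelin and oligodendrocyte genes 11 were higher (median 0.07, with 0.15 against NTG GFP and -0.06 against sham). The lineage factor Olig1 gave -0.30 ± 0.11, Olig2 -0.27 ± 0.15 and Sox10 -0.23 ± 0.14. The myelin protein Opalin gave 0.62 ± 0.29. TG BDNF replicate 3, low in myelin genes, was also the lowest TG BDNF array for Olig1 (10.25) and Olig2 (6.81). The part of that array's composition in these values was not tested.

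Meningeal and fibroblast genes were lower in 12 of 13, with a median of -0.45 (-0.58 against sham and -0.13 against NTG GFP). At an unadjusted p under 0.05, 2 of the 13 were lower, against 4.52% of all genes. The list mean was 8.41, 8.15, 7.70 and 8.80 on the TG BDNF arrays, against 8.38 and 8.32 on the NTG GFP arrays and 8.58, 9.05 and 8.68 on the sham arrays, so the groups overlapped. Igfbp2, an insulin-like growth factor binding protein of the meninges, gave -0.61 ± 0.19, the organic anion transporter Slc22a6 -0.45 ± 0.21, Igf2 -0.49 ± 0.26 and the collagen gene Col1a1 -0.46 ± 0.23. How much meninges each dissection kept is not given, and its part in the other lists was not tested. Of 15 endothelial and mural genes 9 were lower (median -0.07). Against NTG GFP 12 were higher (median 0.07), and against sham 12 were lower (median -0.16). Cldn5, a tight junction protein, gave 0.18 ± 0.06 and Tek, the angiopoietin receptor, 0.24 ± 0.08. The glucose transporter Slc2a1 gave -0.17 ± 0.08 and the efflux transporter Abcb1a -0.19 ± 0.13. Of the 15, 2 passed an unadjusted p under 0.05 as higher and 1 as lower, against 8.63% and 4.52% of all genes. The median was -0.09 over 6 choroid plexus genes, -0.02 over 6 striatal and thalamic genes and 0.08 over 2 erythrocyte genes.

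**Figure D4:**
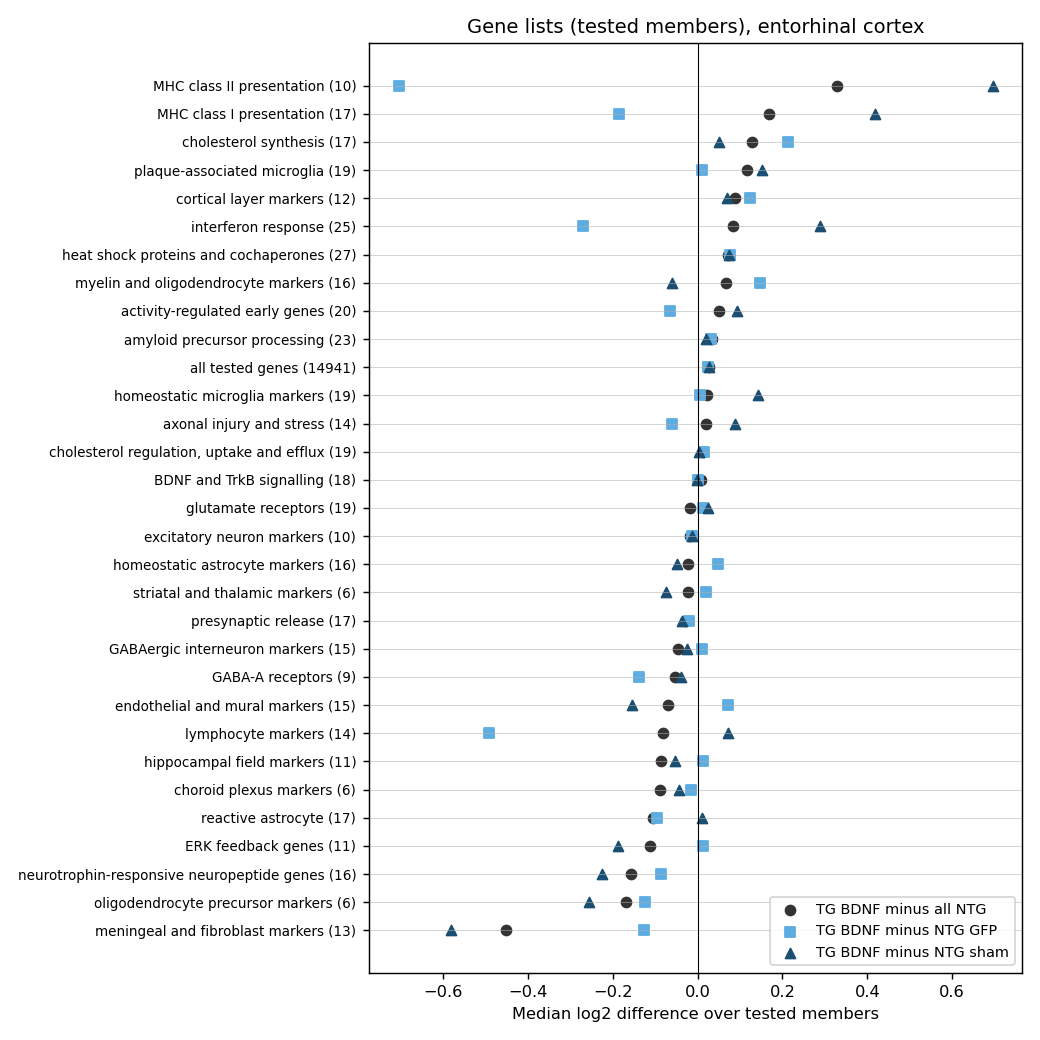
Median log2 difference (x axis) over the tested members of each gene list (y axis, number of members in parentheses) for TG BDNF minus all NTG, minus NTG GFP and minus NTG sham; the sex-linked and erythrocyte lists are not drawn. Medians of MHC, interferon, lymphocyte, endothelial and myelin genes, among others, lie on opposite sides of 0 against NTG GFP and against sham. Cholesterol and precursor genes stay on 1 side.

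Neuronal marker lists had medians near 0. Of 10 excitatory neuron genes 6 were lower (median -0.02), and of 15 GABAergic interneuron genes 8 were lower (median -0.05). Slc17a6, a vesicular glutamate transporter, gave 0.37 ± 0.16, Rbfox3, the neuronal protein NeuN, -0.15 ± 0.10, Slc32a1, the vesicular GABA transporter, 0.22 ± 0.08 and Dlx1, an interneuron transcription factor, 0.24 ± 0.09. In the interneuron list 2 genes passed an unadjusted p under 0.05 as higher, Slc32a1 and Dlx1, and 2 as lower, Npy (-0.37 ± 0.10) and Sst (-0.21 ± 0.07). Over all genes, 8.63% passed as higher and 4.52% as lower. With the mean of its probe sets Slc32a1 was -0.011. Of 12 cortical layer genes 7 were higher (median 0.09), with Cux2, an upper-layer gene, at 0.38 ± 0.17 and Bcl11b, a deep-layer gene, at -0.19 ± 0.08.

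Of 11 hippocampal field genes 5 were higher and 6 lower (median -0.09), and 2 passed an unadjusted p under 0.05, both higher, against 8.63% of all genes in that direction. Wfs1, an endoplasmic reticulum protein that also marks entorhinal cells, read 11.30, 11.32, 11.56 and 11.07 on the TG BDNF arrays, against 10.997 and 10.89 on the NTG GFP arrays and 10.96, 10.96 and 11.005 on the sham arrays, with no overlap. Its log2 difference was 0.35 ± 0.10 (adjusted p = 0.267), and it was 0.30 against TG GFP. Tdo2, a tryptophan dioxygenase, read 4.46, 4.42, 4.68 and 4.63 on the TG BDNF arrays, against 3.88 and 3.70 on the NTG GFP arrays and 4.55, 4.26 and 4.52 on the sham arrays. Its log2 difference was 0.76 against NTG GFP and 0.10 against sham, and its levels were near the lower limit of the genes tested, 4.33.

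Of 17 genes of presynaptic release 8 were higher and 9 lower (median -0.03). The vesicle GTPase Rab3a read 11.96, 11.84, 11.83 and 11.95 on the TG BDNF arrays and 12.02 to 12.07 on the NTG arrays, without overlap, a log2 difference of -0.16 ± 0.05. The complexin gene Cplx1 gave 0.21 ± 0.09. Of 19 glutamate receptor genes 9 were higher and 10 lower (median -0.02). Among them the AMPA receptor subunit Gria4 was at 0.38 ± 0.10 and Gria3 at -0.48 ± 0.14, and the NMDA receptor subunit Grin2b at -0.40 ± 0.11.

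Gria3 read 10.59, 10.58, 10.40 and 10.97 on the TG BDNF arrays, against 10.80 and 11.37 on the NTG GFP arrays and 11.09, 11.32 and 10.99 on the sham arrays. TG BDNF replicate 4 lay above NTG GFP replicate 1, so the ranges overlapped. Gria4 read 10.07, 10.08, 9.89 and 9.96 on the TG BDNF arrays and 9.41 to 9.86 on the NTG arrays, without overlap. Of 9 GABA-A receptor genes 7 were lower (median -0.05), with the subunit genes Gabrg1 at -0.29 ± 0.08, Gabrd at -0.60 ± 0.29 and Gabra3 at -0.30 ± 0.17. None of these genes passed over all genes.

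The distance between 2 arrays was taken as the Euclidean distance of their log2 levels over all tested genes. The median distance of a TG BDNF array to an NTG array was 40.2 over 20 pairs (28.7 to 50.2), against a median of 40.7 over the 6 pairs within TG BDNF and 30.5 over the 10 pairs within all NTG. By these medians the TG BDNF arrays lay about as far from each other as from non-transgenic arrays. The 4 TG GFP arrays lay at a median of 35.6 from the NTG arrays and 36.6 from the TG BDNF arrays. The array nearest to TG BDNF replicate 1 was NTG GFP replicate 1, and those nearest to replicates 2, 3 and 4 were TG GFP arrays. The median gene SD was largest in TG BDNF, at 0.152 over its 4 arrays, or 0.123 without replicate 3. It was 0.116 in TG GFP, 0.0996 in NTG GFP and 0.0944 in NTG sham. These SDs come from groups of 2 to 4 arrays and are not strictly comparable. By distance, the 1 pair within NTG GFP lay 45.5 apart, farther than the median within TG BDNF.

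**Figure D5:**
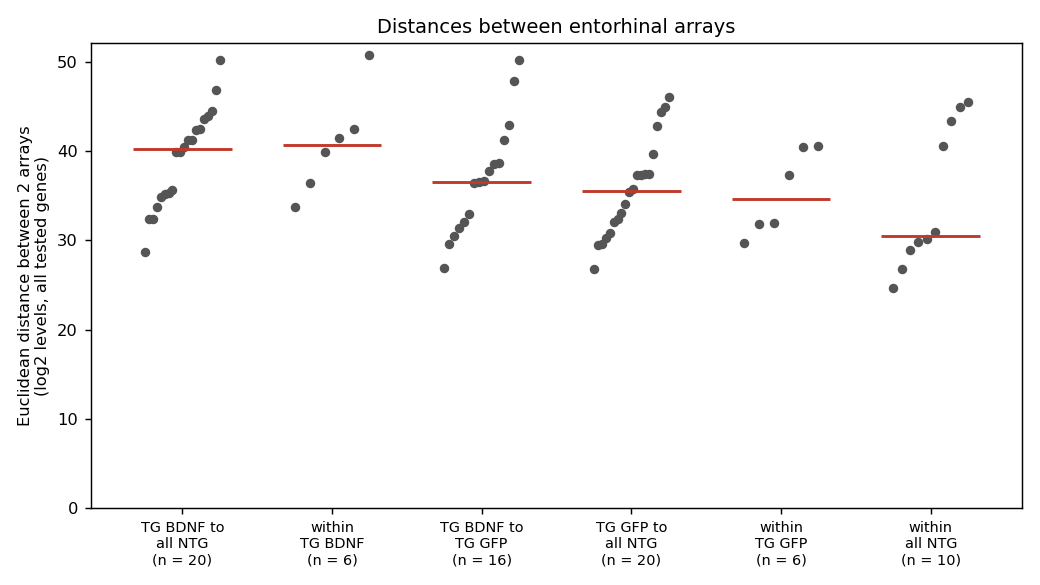
Euclidean distance between pairs of entorhinal arrays over all tested genes (y axis) for 6 kinds of pair (x axis); points are pairs and red lines are medians. The medians for TG BDNF to all NTG (40.2) and within TG BDNF (40.7) are close, and both are above the median within all NTG (30.5).

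The same comparison in the hippocampus, which the labels do not name as an injected site, called 8 genes (0.0535%). Whether the entorhinal difference exceeded the hippocampal one was tested over all 26 arrays, and 0 genes were called by limma, with 1529 at an unadjusted p under 0.05 (10.2%) and a smallest adjusted p of 0.169. The region difference was 0.02 for Thy1 and -0.10 for St13. In the hippocampus Thy1 read 13.85 to 13.93 on the TG BDNF arrays and 12.56 to 12.67 on the NTG arrays, and St13 read 10.87 to 11.02 and 11.53 to 11.65. For Pmaip1 the entorhinal minus hippocampal log2 difference was 0.80 ± 0.24 (adjusted p = 0.41). The labels do not tie the arrays of the 2 regions to the same mice.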

How the data were processed

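The authors deposited 1 table of log2 values for 26 Affymetrix mouse arrays, 13 per region, made with RMA per the submitters' processing notes, without a version. It held 45101 probe sets, 0 missing values and 0 pairs of identical arrays. RMA gives all arrays 1 distribution, so a shift common to most genes cannot be seen, and differences of dim probe sets are compressed.

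Probe sets were named by the platform annotation: 34958 had 1 symbol, 932 several and 9211 none, and 34754 symbols were renewed by Entrez identifier from a RefSeq table of GRCm38.p6. A gene was represented by the probe set that was brightest on average over all arrays (18194 genes), and genes averaging below the 30th percentile of probe sets, 4.33, were dropped, leaving 14941. The test was limma 3.58.1 (R 4.3.3; lmFit, eBayes) on the 13 entorhinal arrays in 4 groups, the 5 non-transgenic arrays counting equally, and on 26 arrays in 8 groups for the region difference. Tests were 2-sided, Benjamini-Hochberg adjusted over all genes and called below 0.05, and ± after a log2 difference is the moderated standard error. The fit was tested on simulated data. Figures used matplotlib 3.10.9. No animal, batch or scan is named, so the number of arrays limits the precision.

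Alternatives covered the filter, probe set choice, scaling, eBayes options, array weights, the arrays fitted, Xist as a covariate, the replicate number as a block, the weighting of the non-transgenic groups and leaving out arrays. The comparison and the gene lists were chosen with earlier results of these data known. Genes were named by a rule: all called genes, the 10 smallest p of a direction with fewer than 5 calls, per described list its called members or the 4 with the smallest p, and Thy1, St13, App, Bdnf, Ntrk2, Gfap and Xist. Not every gene so named is printed, so the members given for a list are not always its 4 with the smallest p. Hmgcs1, Idi1 and Fdps fall outside the rule and were picked after their values were seen. Reln, Prox1 and Dsp, given as markers of the region, also fall outside it. Striatal, choroid plexus and erythrocyte lists are given as medians only. Ddx3y was not analysed here.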

Additional observations from a re-analysis of the deposited data

Results flagged for a closer look

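A gap rule was applied to the 4 TG BDNF arrays and to the 5 NTG arrays for each named gene and each list mean (336 tests): an array is described here where its gap to the nearest other array exceeded Dixon's 95% limit as a share of the group's range. Chance alone passes about 5% of groups, and 18 of 336 passed, in total close to that share. The flags were uneven, with 15 among the NTG arrays and 3 among the TG BDNF arrays. Some flagged list means contain flagged genes, so the flags are not independent of each other. Of these, 14 concerned NTG GFP replicate 1 among the 5 NTG arrays. That array was high for Ctss (12.39, against 11.26 to 11.58 on the other NTG arrays), H2-Aa (11.43, against 6.98 to 7.87), H2-D1 (12.20, against 8.12 to 9.21), Psmb10 (9.31, against 8.65 to 8.81), Psmb8 (8.69, against 5.84 to 6.32), Gbp2 (10.11, against 6.72 to 7.49) and Aif1 (8.42, against 6.94 to 7.07). It was low for Neurod2 (8.70, against 8.97 to 9.08), and the Y-linked Eif2s3y lay at the dim value of 3.48 against 3.10 to 3.19. Its list means were high for MHC class II genes (9.19, against 6.49 to 6.99), MHC class I genes (9.41, against 7.94 to 8.17), lymphocyte markers (7.21, against 5.31 to 5.66), interferon response genes (7.82, against 6.13 to 6.45) and plaque-associated microglia genes (7.72, against 6.86 to 7.04).

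TG BDNF replicate 3 stood apart within its group for Olig2 (6.81, against 7.41 to 7.48 on the other TG BDNF arrays), Rbfox3 (11.16, against 11.63 to 11.68) and Gabra4 (10.89, against 10.57 to 10.61). Sham replicate 3 stood apart among the NTG arrays for the mean over striatal and thalamic markers (7.14, against 7.01 to 7.05). No gene passed the test of a difference between regions in the fit over all 26 arrays.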

How the results depend on the processing

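Against all NTG, Thy1 and St13 were called under each of 29 alternatives, with log2 differences of 1.25 to 1.34 and -0.81 to -0.59. Cwc22 lost its call under 3, Galc under 11, Pcdhb9 under 12 and Pmaip1 under 18. With the mean of its probe sets, which takes in the dim ones, Galc was -0.18. For TG BDNF against all NTG (6 calls), all 26 arrays in 1 fit gave 22 calls, only the groups compared 3, the Xist covariate 3, NTG GFP and sham weighted equally 3, and the non-transgenic arrays as 1 group 2. The replicate number as a block gave 3 calls there and 1, Thy1, against NTG GFP. Deviations from group means of same-numbered arrays in different groups had correlations of -0.25 to 0.39 (16 pairs). Those of differently numbered arrays were -0.42 to 0.42 (46 pairs). With 2 to 4 arrays a group, these values cannot show whether the numbers pair the arrays. Only the groups compared gave 1 call against NTG GFP and 2 against sham, without St13 in either, and all 26 arrays gave 18 against sham. For TG GFP against all NTG, array weights and all 26 arrays each gave 5, and array weights gave 1 call in the region difference. Leaving out 1 array gave 2 to 10 calls against all NTG, 1 to 2 against NTG GFP, 5 to 13 against sham, 2 to 4 for TG GFP against all NTG and 0 to 2 for the region difference. The 10 and the 4 came without NTG GFP replicate 1, the 5 without sham replicate 2, and the 2 region calls without TG BDNF replicate 4. With Xist as a covariate and without TG BDNF replicate 3, an alternative added after seeing the data, 4 were called.

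Of 136 named genes, 123 kept their direction under every alternative run and 13 did not. With the mean of the probe sets App was 0.044, Gfap 0.055, Akt1 -0.14, Ide -0.0087 and Slc32a1 -0.011. App was 0.017 after renewed quantile normalization and 0.013 after centring on medians. With the Xist covariate Gfap was 0.12 and Trim30a 0.021. With it and without TG BDNF replicate 3, Gfap was 0.11, Akt1 -0.0046, Oas1a 0.00098 and Trim30a 0.011. Without the 2 arrays low in myelin genes Ntrk2 was 0.041 and Rbfox3 0.0091. Leaving out 1 array gave App -0.030 to 0.0063, Bdnf -0.086 to 0.16, Ntrk2 -0.14 to 0.020, Gfap -0.28 to 0.091, Ctss -0.017 to 0.44, H2-Aa -0.028 to 1.5, Trim30a -0.29 to 0.058 and Ctsd -0.015 to 0.18. The cause of these changes was not tested.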
